A study of Mus musculus with 6 samples.

Results

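Integrins and tetraspanins are surface proteins that act together in cell adhesion, and 50 of the 23306 genes in the deposited table belonged to them by name. The members were the rows whose symbol starts with Itga, Itgb or Tspan and a digit, or is one of 13 listed names such as Itgal, Itgam, Cd9 and Cd63, without the Itgb1bp genes and with a mean of at least 3 normalised reads over all libraries. They comprised 17 integrin alpha chains, 7 integrin beta chains, 23 tetraspanins and 3 rows that the names brought in: Itgb3bp, which encodes a centromere protein, and the antisense transcripts Tspan2os and Tspan32os. Tspan10 (mean 1.79) and Itga8 (1.98) lay just under the threshold, and Tspan2os (3.40) and Tspan1 (6.41) just above it. The tetraspanin-related uroplakin genes Upk1a and Upk1b do not carry these names and were counted among partner genes.

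The 6 samples were isogenic T-cell acute lymphoblastic leukaemias (T-ALL) of C57BL/6 mice, taken from bone marrow, of which 3 were labelled Phf6 WT and 3 Phf6 KO. The product of Phf6 is a chromatin-associated PHD finger protein and a tumour suppressor of human T-ALL. The gene was deleted by a tamoxifen-inducible Cre recombinase, with corn oil as vehicle, and since the labels do not say which samples received which, drug exposure and gene loss cannot be told apart. What drives Cre, the animals' age and whether each sample is a separate animal were not stated in the labels. The table's column names share 1 prefix and carry a separate number for each library, whose meaning is not stated, and the p-values measure only the spread among these 6 samples, which may be technical. Here and below, the 3 values of a group are given in the order of the library numbers.

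PolyA RNA was sequenced to between 46067511 and 54953145 gene-assigned reads per library. Phf6 was lower in every knockout library, at 4240 to 5508 normalised reads in wild type and 1755 to 2337 in knockout, so that 0.396 of the wild-type mean remained. The T-cell markers that define the leukaemia were abundant in all libraries. Summed over 14 genes they had 335297 to 357410 normalised reads in wild type and 296337 to 359114 in knockout, with overlapping groups. Markers of other cells were also present. Summed over 19 neutrophil markers, the wild-type libraries had 6423, 24127 and 10255 normalised reads and the knockout libraries 64566, 67945 and 50978, and the sum of 14 macrophage and monocyte markers was 2756 to 6073 and 8715 to 14608. B-cell markers summed to 185 to 229 and 330 to 741, megakaryocyte markers to 197 to 203 and 338 to 495, and basophil, mast-cell and eosinophil markers to 246 to 557 and 489 to 1428. Stromal and endothelial markers summed to 24334 to 29950 in wild type and 32588 to 40043 in knockout. Of the 10 genes on that list only 4 were tested, of which 3 had positive and 1 negative log2 fold changes (median 0.19). In the comparison below, limma called 0 of them as higher and 1, Col1a1, as lower, and edgeR called 1 in each direction. The higher sum therefore need not describe each of its genes. The groups overlapped for the basophil, mast-cell and eosinophil sums, and for those of NK-cell and dendritic-cell markers (1427 to 1527 and 1170 to 1471). They also overlapped for the sums of erythroid markers (232 to 386 and 262 to 509). Of the defining megakaryocyte markers, Pf4 was at 0 in wild-type library 2 and Gp1bb in wild-type library 3. In such bulk samples, fewer or more cells of a type and less or more RNA per cell cannot be told apart.

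An integrin is a pair of 1 alpha and 1 beta chain that binds matrix proteins or counter-receptors on other cells, and the pairing sets its ligand. On leukocytes the beta 2 integrins bind ICAM proteins, and alpha 4 paired with beta 1 or beta 7 binds VCAM-1 and MAdCAM-1 in marrow and gut. Tetraspanins cross the membrane 4 times and gather integrins, proteases and receptors into membrane domains, on the cell surface or on endosomes and granules.

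Promoters of 5 members are shown because a motif of the myeloid and B-cell factor PU.1 was found in more of the members' windows than in windows of all genes. RefSeq promoter windows (GRCm38.p6, 250 bases before to 50 after the start) were matched for 40 of the 50 members, in 51 windows, and were searched on both strands for the PU.1 letters GAGGAAGT. For comparison, the RUNX letters TGTGGT were searched, as were those of GATA factors (spelled AGATAA here). The other words were CCGGAAGT for ETS factors and, for the E-box, CACGTG, which is its own reverse complement. The PU.1 and ETS letters share the ending GGAAGT but cannot fill the same place. GAGGAAGT was in 8 of the 51 windows (15.7%), against 3.20% of all 32851 windows, which is given as a description, since some members have several windows. It occurred in windows of Itgb2l, Itgb7, Itgav, Itga11, Cd37, Cd53, Cd82 and Tspan14. Among windows of members that rose in the comparison below it was in 1 of 10, and among those of members that fell in 0 of 4. The RUNX letters were in 9 of the members' windows (17.6%; 16.8% of all), the GATA letters in 4 (7.84%; 11.2%), the E-box in 2 (3.92%; 7.15%) and the ETS letters in 0 (3.89% of all). Below are 150 bases before and 20 after the start for 4 of the 8 windows, in which the reverse complement of the PU.1 letters is in capitals, and for Itgam, in which none of the 5 motifs was found. A match is a run of letters and not a shown binding site.
Itgb2l, chr16:96443595-96443764, minus strand: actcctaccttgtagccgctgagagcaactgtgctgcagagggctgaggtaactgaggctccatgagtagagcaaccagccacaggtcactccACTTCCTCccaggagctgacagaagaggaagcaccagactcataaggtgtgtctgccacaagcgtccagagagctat
Cd37, chr7:45238820-45238989, minus strand: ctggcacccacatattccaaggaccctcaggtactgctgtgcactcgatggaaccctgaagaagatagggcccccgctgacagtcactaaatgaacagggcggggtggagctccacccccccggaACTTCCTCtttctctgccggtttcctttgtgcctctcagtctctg
Cd53, chr3:106790130-106790299, minus strand: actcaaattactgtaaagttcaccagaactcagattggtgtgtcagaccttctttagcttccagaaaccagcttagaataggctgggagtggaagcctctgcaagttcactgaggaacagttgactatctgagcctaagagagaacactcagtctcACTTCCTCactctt
Itgb7, chr15:102231916-102232085, minus strand: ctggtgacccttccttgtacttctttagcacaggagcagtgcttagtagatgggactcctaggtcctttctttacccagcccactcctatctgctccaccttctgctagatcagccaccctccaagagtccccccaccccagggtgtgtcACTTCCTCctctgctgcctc
Itgam, chr7:128062490-128062659, plus strand: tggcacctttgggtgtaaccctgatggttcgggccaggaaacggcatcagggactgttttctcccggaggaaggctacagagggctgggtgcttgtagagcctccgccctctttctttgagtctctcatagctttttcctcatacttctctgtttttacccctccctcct
Of these 5 genes, Itgb2l and Itgam rose in the knockout libraries, and Cd37, Cd53 and Itgb7 did not pass the test.

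The question of the comparison was how these adhesion genes differ between the libraries labelled Phf6 KO and Phf6 WT. Of 47 members with enough reads to test, 7 rose and 3 fell in the knockout libraries. The integrin chains that rose were Itga1, Itga2, Itgam and Itgb2l, the tetraspanins that rose were Cd63, Tspan9 and Tspan15, and those that fell were Tspan4, Tspan6 and Tspan31. No integrin passed the test as lower with limma (Benjamini-Hochberg adjusted p under 0.05 over all genes tested), edgeR or DESeq2, and none of the 6 with a negative log2 fold change had an unadjusted p under 0.05. Over all 17993 genes tested, 8.75% were called, 5.32% as higher and 3.43% as lower, and among the 47 members 21.3% were called. With edgeR the same members were called, beside 8.16% of all genes, and DESeq2 added Cd82, beside 12.4% of all genes. The median log2 fold change, on the log2(value + 2) scale, was 0.43 over 16 alpha chains, 0.49 over 7 beta chains and -0.003 over 22 tetraspanins, against -0.01 over all genes. The groups did not overlap for 21 of the 47 members and for 31.2% of all genes tested. The knockout libraries were the higher ones for 15 of these members (15% of all genes) and the lower ones for 6 (16.2% of all genes). Leaving out knockout library 3 left 2 rises, Tspan9 and Tspan15, and 1 fall, Tspan4, in a fit that called 1.09% of all genes.

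**Figure D1:**
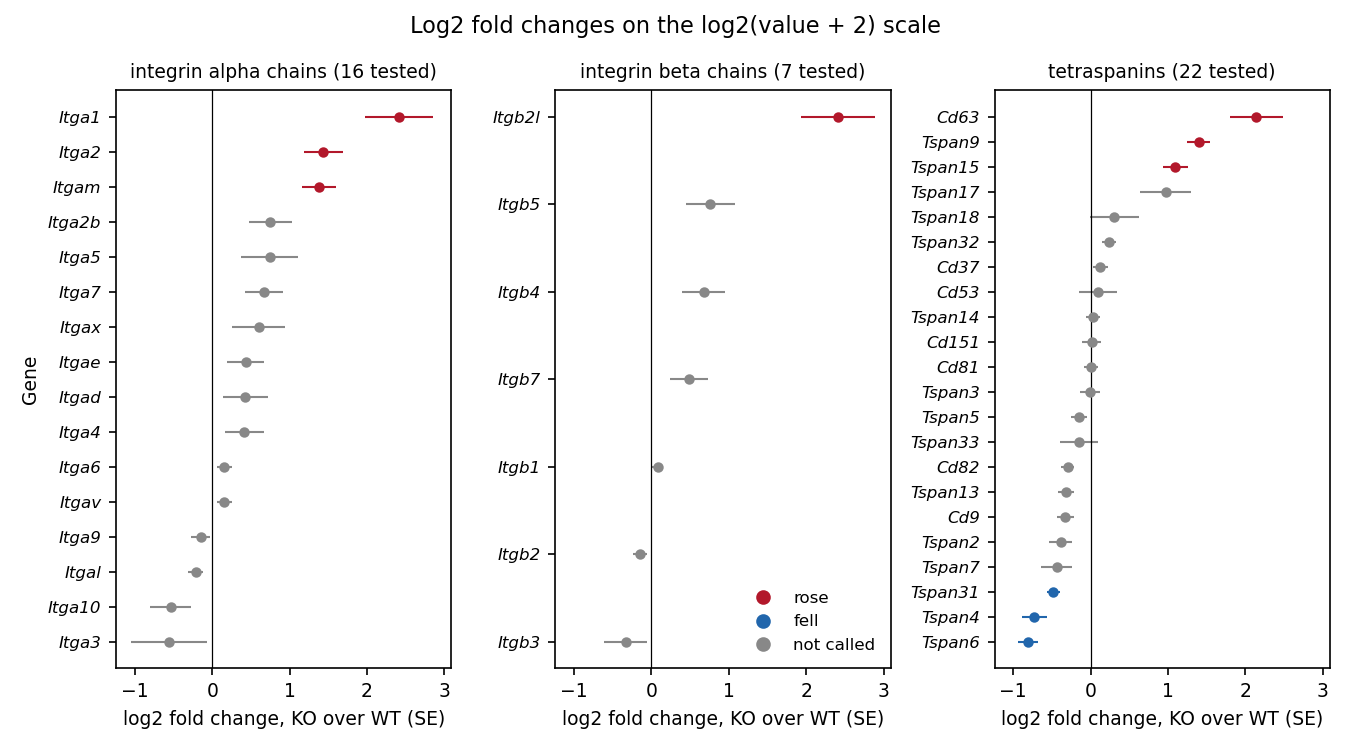
Log2 fold changes, knockout over wild type, on the log2(value + 2) scale, with the SE as bars, for the tested integrin alpha chains, beta chains and tetraspanins, with genes that rose in red, fell in blue and were not called in grey. Integrin values run from -0.56 for Itga3 to 2.41 for Itga1 and Itgb2l, and tetraspanin values from -0.81 for Tspan6 to 2.14 for Cd63.

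The most abundant integrin chains, Itgb1, Itgal and Itgb2, had small log2 fold changes that did not pass the test. Scaled by exon length, Itgb1 had the highest mean level of all members (4591 normalised reads per kb), followed by the leukocyte tetraspanin Cd53 (3952), Itgal (3578) and Itgb2 (3410). Itgb1, the chain shared by the collagen, laminin and VCAM-1 receptors, had 18365, 17977 and 18311 normalised reads in wild type and 19746, 19416 and 18591 in knockout. The knockout values were all above the wild-type values, but by a small amount, a log2 fold change of 0.08 (95% confidence interval -0.08 to 0.24). Itgal, the alpha chain of the ICAM receptor LFA-1, had 28514, 22733 and 24535 reads in wild type and 20667, 21832 and 22748 in knockout. Its groups overlapped only by wild-type library 2 and knockout library 3, and its log2 fold change of -0.21 (95% interval -0.43 to 0.01) did not pass the test (limma adjusted p = 0.212). Its partner Itgb2 had 11936, 9831 and 11051 reads in wild type and 9853, 9310 and 10469 in knockout, with overlapping groups and a log2 fold change of -0.14 (95% interval -0.35 to 0.06).

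Among the alpha chains that pair with Itgb2, the myeloid chain rose from a low level. Itgam (ENSMUSG00000030786; GRCm38 chromosome 7, 128062640 to 128118491, plus strand) encodes CD11b, which forms the complement receptor Mac-1 on neutrophils and monocytes. It had 103, 140.2 and 106 normalised reads in wild type and 227, 366 and 337 in knockout. Every knockout library was above every wild-type library, and among the wild-type libraries the highest was library 2. That library also had the highest neutrophil sum and the highest macrophage and monocyte sum of its group. The means were 116 ± 21 and 310 ± 73 (SD, n = 3 each), so that the log2 fold change came to 1.38 ± 0.22 (SE), with a limma adjusted p of 0.00682. The call was lost without knockout library 3 (limma adjusted p = 0.0625). Per kb of exon, Itgam made up 0.609% ± 0.170 of the summed level of Itgal, Itgam, Itgax and Itgad in wild type and 1.81% ± 0.366 in knockout (SD, n = 3 each), while Itgal held 97.5% to 99.3% in every library. The neighbouring genes Itgax and Itgad, which encode CD11c and CD11d, follow Itgam on the same strand at distances of 11.056 and 35.885 kb. They had 16.3 to 22.7 and 16.0 to 20.7 reads in wild type and 19.8 to 48.1 and 21.1 to 31.2 in knockout, and neither passed the test. In GENCODE M21, 3450 of the 5024 exonic bases of Itgam also belong to Gm49368, a same-strand gene that is not in the table, so the level of Itgam depends on how shared reads were counted.

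Itgb2l had the largest fold among the beta chains. This gene (ENSMUSG00000000157; GRCm38 chromosome 16, 96422288 to 96443619, minus strand) encodes a beta 2-like chain of granulocytes, and its window above carries the PU.1 letters. It had 38.0, 151 and 90.4 normalised reads in wild type and 485, 520.4 and 335 in knockout. The groups did not overlap, and wild-type library 2 was again the highest of its group. The log2 fold change was 2.41 ± 0.48 (SE), with a limma adjusted p of 0.0290, from a mean of 93.2 ± 56.6 to 447 ± 98 (SD, n = 3 each). Leaving out wild-type library 3, or any 1 of the knockout libraries, ended the call, with limma adjusted p up to 0.114. Itgb2l resembles Itgb2 in sequence, so reads of these genes may be shared, and Itgb2 was far more abundant.

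The other beta chains did not pass the test. Itgb3, which pairs with Itgav or the platelet chain Itga2b, had 4272, 2460 and 2643 reads in wild type and 1840, 2414 and 3125 in knockout, with wild-type library 1 standing above the rest. Itgb4, a partner of Itga6, ranged from 62.1 to 131 in wild type and from 119 to 175 in knockout. Itgb5, a partner of Itgav, ranged from 13.6 to 22.7 and from 24.0 to 41.1, a log2 fold change of 0.76 (limma adjusted p = 0.169). Itgav itself had 1147 to 1250 reads in wild type and 1281 to 1400 in knockout (log2 fold change 0.16; 95% interval -0.05 to 0.36), and Itga2b had 41.0 to 68.1 and 68.5 to 117.

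The alpha chains of the collagen receptors, which all pair with Itgb1, differed among themselves. Itga2 (ENSMUSG00000015533; GRCm38 chromosome 13, 114833081 to 114932100, minus strand), known on NK cells and platelets as CD49b, had 99.1, 60.2 and 79.5 normalised reads in wild type and 163, 224 and 271 in knockout. All knockout values were above all wild-type values, and wild-type library 2 was the lowest of its group. The log2 fold change was 1.44 ± 0.25 (SE), with a limma adjusted p of 0.00964, and the call was lost without knockout library 3 (limma adjusted p = 0.0722). Itga1 (ENSMUSG00000042284; chromosome 13, 114953096 to 115101964, minus strand), the neighbour of Itga2 at a distance of 20.996 kb, had 11.01, 25.7 and 5.42 reads in wild type and 57.4, 77.9 and 83.2 in knockout. These groups did not overlap either, and here wild-type library 2 was the highest of its group. The log2 fold change of Itga1 was 2.41 ± 0.44 (SE), with a limma adjusted p of 0.0128, and leaving out wild-type library 1 or knockout library 3 ended the call (limma adjusted p up to 0.0913). Itga1 shares 685 of its 18599 exonic bases with Gm49395, a same-strand gene that is not in the table.

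Itga10 was lower in the knockout means without passing the test, at 154, 79.0 and 108 reads in wild type and 74.1, 64.4 and 88.3 in knockout (log2 fold change -0.53; limma adjusted p = 0.241). In GENCODE M21 it shares 1739 of its 5186 exonic bases with the same-strand gene Gm42957. Itga11 was too low to test, with 6.33 to 9.88 and 9.39 to 17.1 reads. Per kb of exon, Itga10 was 61.2% ± 4.3 of the summed level of these 4 chains in wild type and 28.6% ± 4.8 in knockout, and Itga2 was 31.7% ± 1.5 and 59.1% ± 4.3 (SD, n = 3 each). The leading collagen receptor chain was Itga10 in each wild-type library and Itga2 in each knockout library. The summed level was low in both groups, 27.0 to 45.8 and 42.0 to 62.8 reads per kb.

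**Figure D2:**
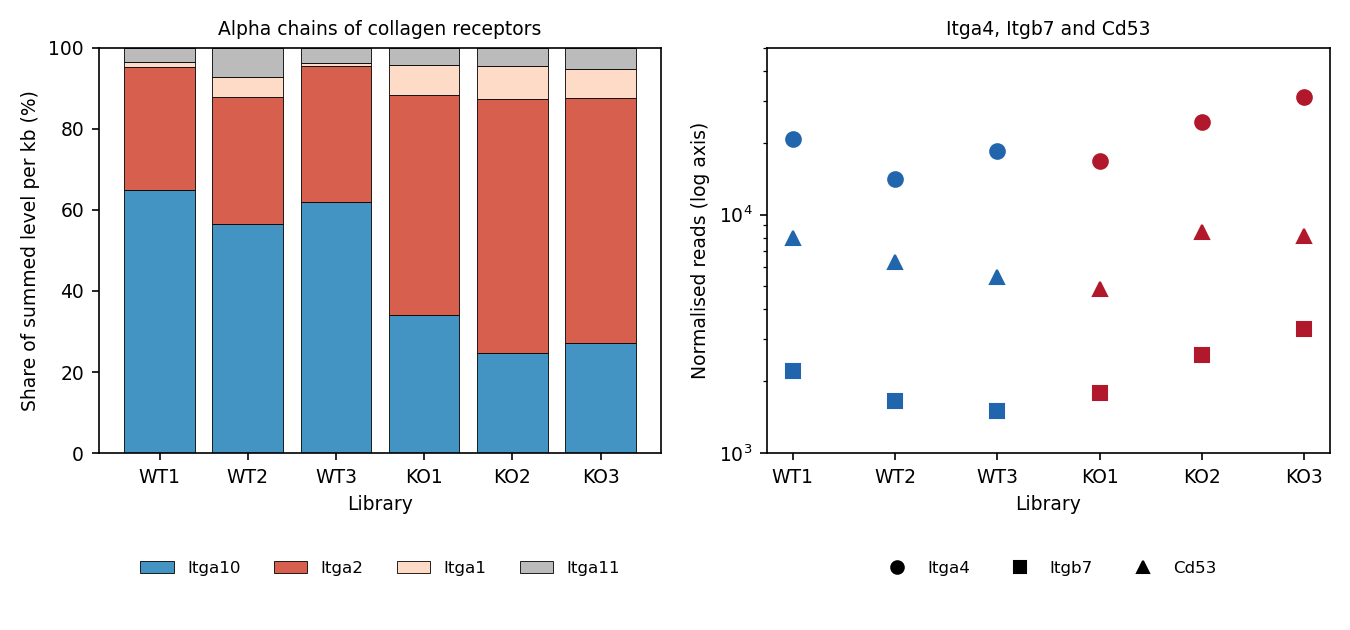
The left panel shows, for each library, the share of Itga10, Itga2, Itga1 and Itga11 in their summed level per kb of exon, as stacked bars in percent, and Itga2 holds 54.3% to 62.5% in knockout libraries. The right panel plots normalised reads of Itga4, Itgb7 and Cd53 on a log axis, wild type in blue and knockout in red, and knockout library 1 lies below knockout libraries 2 and 3 for all 3 genes.

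The alpha 4 chain and its beta 7 partner varied widely between libraries of 1 genotype. Itga4, whose product with beta 1 or beta 7 guides lymphocytes to marrow and gut, had 20723, 14053 and 18545 normalised reads in wild type and 16785, 24499 and 31163 in knockout. Knockout libraries 2 and 3 were above every wild-type library, while knockout library 1 was below wild-type libraries 1 and 3. Itgb7 had 2206, 1661 and 1496 reads in wild type and 1782, 2566 and 3319 in knockout, again with knockout library 1 inside the wild-type range. Neither passed the test, with log2 fold changes of 0.42 (95% interval -0.20 to 1.03; limma adjusted p = 0.369) and 0.49 (-0.10 to 1.08; limma adjusted p = 0.275). The ratio of Itga4 to Itgb7 reads was between 9.39 and 9.55 in the 3 knockout libraries and 9.39, 8.46 and 12.4 in the wild-type libraries. Itga9, the closest relative of Itga4 and a receptor for VCAM-1 and tenascin, had 6735, 7011 and 7838 reads in wild type and 7776, 5543 and 6319 in knockout, so knockout library 1 was here the highest of its group. Itgae, the other partner of Itgb7 and the receptor for E-cadherin, had 61.2 to 80.4 and 84.5 to 133 reads (0.44 as log2 fold change; limma adjusted p = 0.294).

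The laminin and fibronectin receptor chains did not pass the test. Itga6 had 3754, 3226 and 3736 reads in wild type and 4298, 3696 and 3958 in knockout, with overlapping groups, and made up 90.0% to 95.5% of the summed level per kb of Itga3, Itga6 and Itga7. Itga7 had 143 to 212 and 205 to 376 reads (0.67 as log2 fold change; limma adjusted p = 0.128), Itga3 10.8 to 17.8 and 3.13 to 15.6, and the fibronectin receptor chain Itga5 57.1 to 162 and 122 to 208. Itga5 was called as higher without wild-type library 2, as was Itgb4, in a fit that called 10.9% of all genes. Neither was called when another library was left out (limma adjusted p up to 0.558 and 0.447).

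**Figure D3:**
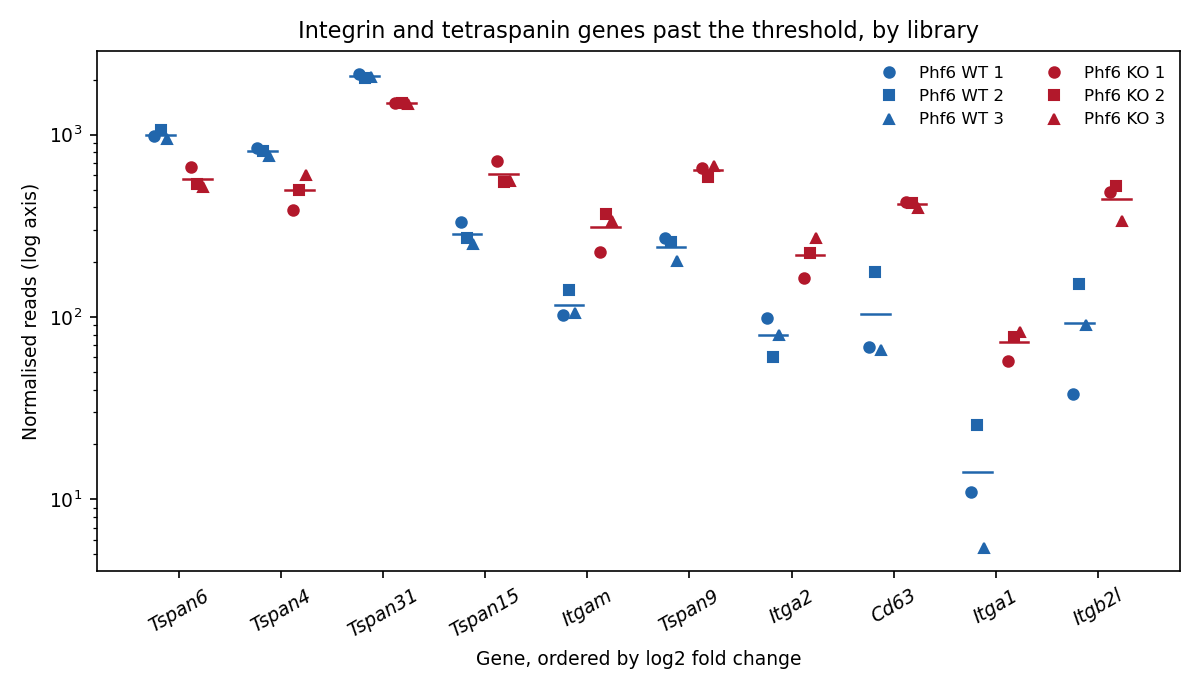
Normalised reads, on a log axis, of the 10 members past the threshold by library, wild type in blue and knockout in red, the marker shape giving the library number and bars for group means. The groups do not overlap for any of the 10 genes, and the lowest values are those of Itga1, from 5.42 to 83.2.

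Of the 22 tested tetraspanins, 3 rose and 3 fell (27.3% called, against 8.75% of all genes tested), and 16 did not pass the test. Cd63 (ENSMUSG00000025351; GRCm38 chromosome 10, 128900989 to 128912822, plus strand), a tetraspanin of late endosomes and of the granules of myeloid cells and platelets, had 68.1, 176 and 66.0 normalised reads in wild type and 426, 423 and 398 in knockout. The knockout libraries were close to each other, and wild-type library 2 stood apart from its group. The log2 fold change was 2.14 ± 0.35 (SE), with a limma adjusted p of 0.0111, and leaving out wild-type library 1 or knockout library 3 ended the call (limma adjusted p up to 0.0747).

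Tspan9 and Tspan15 kept their calls under every one of the 16 other fits run. Tspan9 (ENSMUSG00000030352; GRCm38 chromosome 6, 127961396 to 128143594, minus strand), known from platelets, had 270, 257 and 203 reads in wild type and 660, 589 and 674 in knockout. Its means were 243 ± 35 and 641 ± 46 (SD, n = 3 each), so that the log2 fold change came to 1.40 ± 0.15 (SE), with a limma adjusted p of 0.00225. Tspan15 (ENSMUSG00000037031; GRCm38 chromosome 10, 62185396 to 62231251, minus strand), a partner of the sheddase ADAM10, had 330, 272 and 250 reads in wild type and 714, 552 and 561 in knockout. Its log2 fold change was 1.09 ± 0.16 (SE), with a limma adjusted p of 0.00484. For both genes the groups were well separated, and wild-type library 2 lay between libraries 1 and 3.

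Tspan15 belongs to the TspanC8 group, whose members carry ADAM10 to the surface and direct its choice of substrates. In the same group Tspan14 had 2064 to 2303 reads in wild type and 2133 to 2385 in knockout (log2 fold change 0.03; 95% interval -0.17 to 0.22), and Tspan5 had 1320 to 1480 and 1141 to 1404 (-0.15; -0.39 to 0.09). Tspan17 had 10.8 to 22.0 and 26.1 to 38.4 reads, groups that did not overlap (log2 fold change 0.97; limma adjusted p = 0.0972), and Tspan33 had 27.7 to 31.6 and 24.0 to 28.1. Per kb of exon, Tspan14 (846) and Tspan5 (183) were above Tspan15 (54.5), Tspan17 (14.2) and Tspan33 (5.30) over all libraries. Adam10 did not pass the test (6184 to 7394 reads in wild type and 6537 to 6613 in knockout).

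The falls were smaller than the rises. Tspan6 (ENSMUSG00000067377; GRCm38 chromosome X, 133891068 to 133898429, minus strand), a tetraspanin of endosomes, had 986, 1061 and 949.9 normalised reads in wild type and 667, 534 and 514.5 in knockout, without overlap. Its log2 fold change was -0.81 ± 0.13 (SE), with a limma adjusted p of 0.00659, and the call was lost without knockout library 3 (limma adjusted p = 0.0527). Tspan4 (ENSMUSG00000025511; GRCm38 chromosome 7, 141475240 to 141493427, plus strand), known for its place in the migrasomes that moving cells leave behind, had 845, 818.7 and 765.5 reads in wild type and 387, 501 and 599.7 in knockout. Its log2 fold change was -0.73 ± 0.16 (SE), with a limma adjusted p of 0.0226, and the call was lost without wild-type library 1, wild-type library 3 or knockout library 2 (limma adjusted p up to 0.102). Its neighbour Cd151, 3.77 kb away on the same strand and a close partner of laminin-binding integrins, had 488 to 515 reads in wild type and 479 to 568 in knockout (log2 fold change 0.02; 95% interval -0.26 to 0.29).

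Tspan31 (ENSMUSG00000006736; GRCm38 chromosome 10, 127067280 to 127070264, minus strand) had the smallest relative spread of the 10 called members, with 2142, 2054 and 2065 reads in wild type and 1502, 1495 and 1483 in knockout. The means were 2087 ± 48 and 1493 ± 9 (SD, n = 3 each), so that the log2 fold change came to -0.48 ± 0.08 (SE), with a limma adjusted p of 0.00849, and the call was lost without knockout library 3 (limma adjusted p = 0.0527). Tspan31 overlaps the cyclin-dependent kinase gene Cdk4 on the opposite strand by 641 exonic bases. Cdk4, with a mean of 16903 reads, fell as well (log2 fold change -0.35; limma adjusted p = 0.0358), and Chid1, which overlaps Tspan4 on the opposite strand by 292 bases, fell by 0.45 on the log2 scale (limma adjusted p = 0.0474). No source used here gives the strand setting of the counting, so reads of such overlapping genes cannot be told apart.

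The tetraspanins of lymphocytes were abundant and mostly close between the groups. Cd81, which takes part in lymphocyte contacts and signalling, had 6774, 7774 and 6772 reads in wild type and 7108, 7474 and 6754 in knockout (log2 fold change 0.003; 95% interval -0.19 to 0.20). Cd37 had 5881, 5283 and 5231 and then 5568, 5581 and 6800 (0.13; -0.10 to 0.35). Tspan32 had 7241, 7449 and 6591 reads in wild type and 7858, 8116 and 9077 in knockout, all above the wild type, but did not pass the test (0.23; limma adjusted p = 0.129). Cd53, a pan-leukocyte tetraspanin, had 8008, 6344 and 5471 reads in wild type and 4892, 8483 and 8108 in knockout. Like Itga4 and Itgb7, it was lowest of its group in knockout library 1, and its interval was wide (log2 fold change 0.09; 95% interval -0.50 to 0.68).

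A further set of tetraspanins was lower in every knockout library without passing the test. Cd82, which restrains integrin-driven migration, had 7368, 7174 and 7358 reads in wild type and 6388, 5458 and 6021 in knockout (log2 fold change -0.30 ± 0.08, SE). Its limma adjusted p was 0.0535, and DESeq2 called it (adjusted p = 0.0382). Tspan13 had 3399, 3413 and 3570 reads in wild type and 3162, 2698 and 2502 in knockout (-0.32; limma adjusted p = 0.0747), and Cd9, which joins integrins and the immunoglobulin-like proteins Ptgfrn and Igsf8, had 1134 to 1417 and 961 to 1102 (-0.33; limma adjusted p = 0.101). Tspan2 had 1329 to 1857 and 1016 to 1367 reads, and the X-linked Tspan7 had 394 to 574 and 264 to 420.4; both overlapped and neither was called. Tspan3 had 2509 to 3283 and 2367 to 3051 reads, Tspan18 14.5 to 24.0 and 17.7 to 27.1, and Tspan1, too low to test, 0.904 to 7.90 and 7.30 to 9.35. The remaining rows, Itgb3bp (478 to 507 and 363 to 512 reads) and Tspan32os (53.3 to 68.1 and 61.3 to 67.2), were not called, and Tspan2os (1.98 to 7.23 and 1.04 to 3.12) was too low to test.

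**Figure D4:**
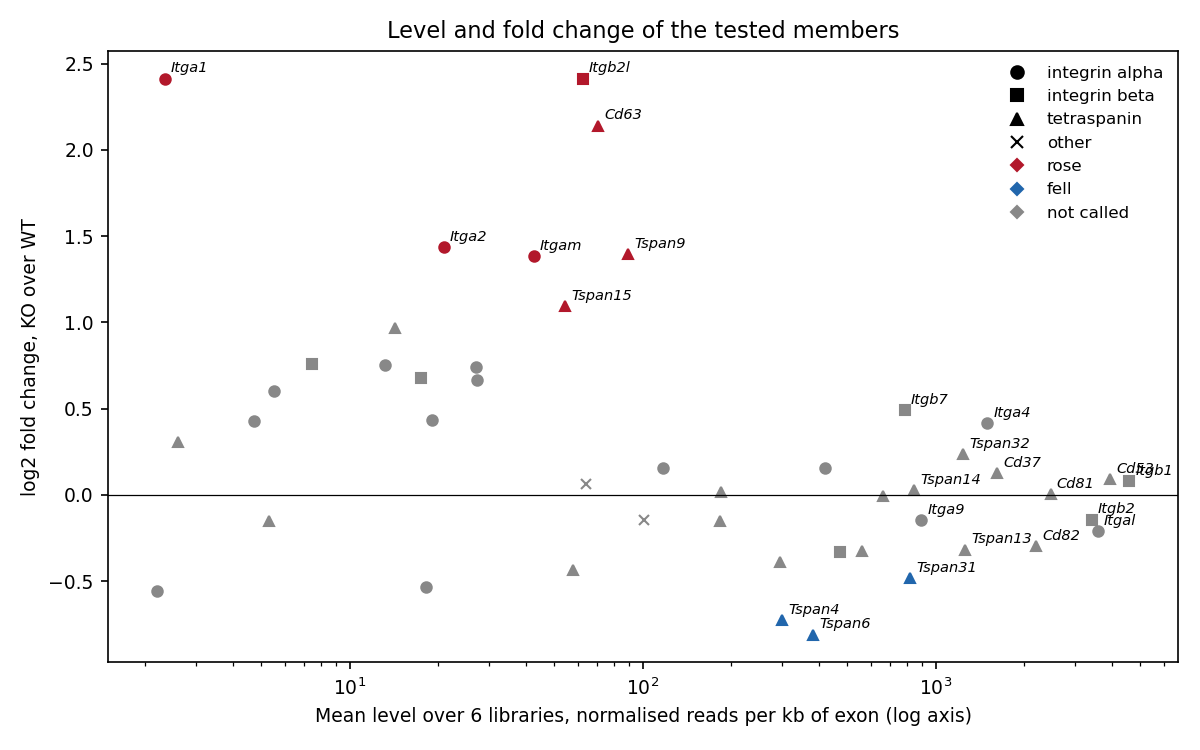
Change of the 47 tested members (log2 fold change, knockout over wild type) against their mean level over 6 libraries in normalised reads per kb of exon (log axis), with the marker shape giving the family. All 7 genes that rose lie at or under 88.9 reads per kb, and the 16 members at or above 500 lie within 0.49 of 0.

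The calls lay mostly among members of lower level. Of 16 tested members with a mean of at least 500 reads per kb, Tspan31 alone was called, and the largest absolute log2 fold change was 0.49. Of the 31 below that level, 7 rose and 2 fell, with a median absolute log2 fold change of 0.60. Over all genes tested with a known exon length, 7.44% of 5403 at or above 500 reads per kb and 9.31% of 12573 below it were called, with median absolute log2 fold changes of 0.15 and 0.24. The level that divides these classes was chosen after the values were seen, and low genes also have larger errors.

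The rising members fell into patterns within the wild-type group. Cd63, Itga1, Itgam and Itgb2l were highest in wild-type library 2, the library with the highest neutrophil sum, while Itga2, Tspan9 and Tspan15 were highest in wild-type library 1. Within wild type, library 2 also had the highest sum for every other marker list except that of T cells, though narrowly for megakaryocyte markers. Macrophage and monocyte markers summed to 3601, 6073 and 2756 reads in wild type and 8715, 14608 and 11461 in knockout. Relative to the wild-type mean, Itgb2l was 0.408, 1.62 and 0.970 in wild type and 5.21, 5.58 and 3.60 in knockout, and the neutrophil sum was 0.472, 1.77 and 0.754 and then 4.75, 4.995 and 3.75. Cd63 was 0.659, 1.70 and 0.639 in wild type and 3.86 to 4.12 in knockout. Tspan9, in contrast, was 1.11, 1.05 and 0.835 in wild type and 2.42 to 2.77 in knockout. All 19 neutrophil markers tested had positive log2 fold changes (median 2.28, 9 called), as did 12 of 14 macrophage and monocyte markers (median 0.99, 5 called). So did 7 of 8 tested B-cell markers (median 1.36, 5 called). Of 14 T-cell markers, 10 had negative log2 fold changes (median -0.18, 2 called as lower). The part of any of these cell types in the rises of these members was not tested. Without wild-type library 2 all 7 rises were still called, in a fit that called 10.9% of all genes, against 8.75% with all libraries. The log2 fold changes were then 2.86 for Itgb2l, 2.596 for Cd63, 2.91 for Itga1 and 1.52 for Itgam. They were 1.25 for Itga2, 1.44 for Tspan9 and 1.07 for Tspan15. Leaving out that library also takes out the highest wild-type neutrophil sum, so this fit cannot separate the rises of members from those of the markers.

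**Figure D5:**
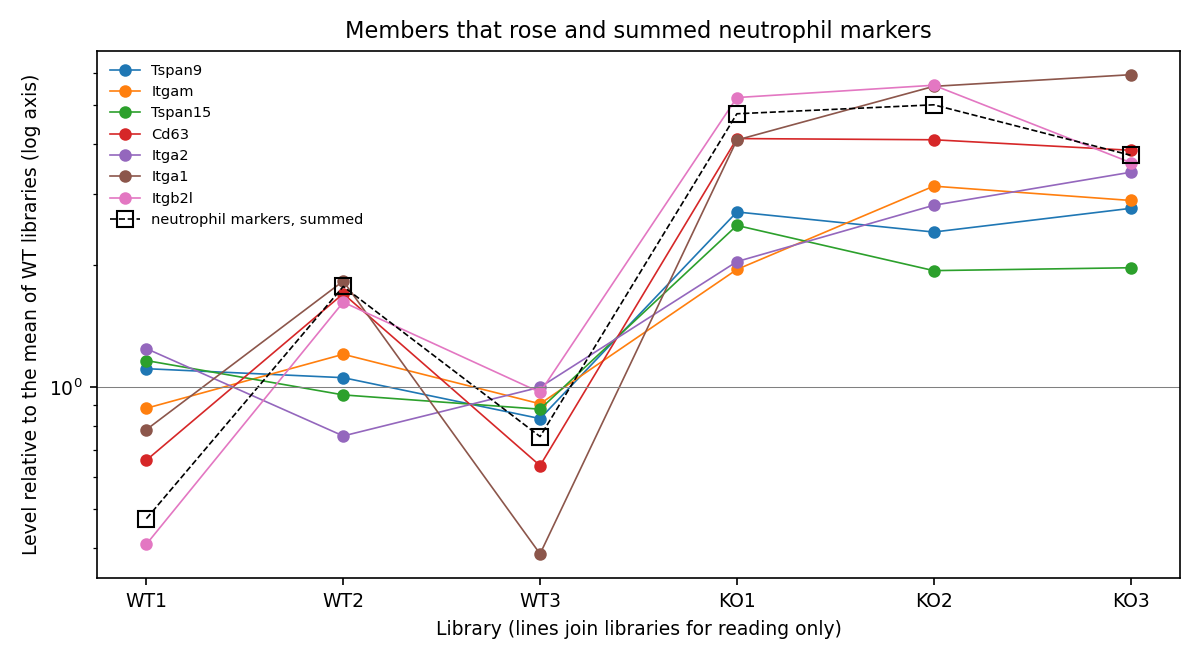
Level of each of the 7 members that rose, and of the summed neutrophil markers (open squares), relative to the mean of the wild-type libraries, on a log axis; lines join libraries for reading only. Itgb2l and the neutrophil sum take nearby values in each library, and Itga2, Tspan9 and Tspan15 do not share the high value of wild-type library 2, where the neutrophil sum is at 1.77.

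The proteins that link integrins to the cytoskeleton and set their activity mostly did not pass the test. Of 35 listed adaptors and activators, 32 were tested, 4 rose and 2 fell, and their median log2 fold change was -0.06. The share called was 18.8%, against 8.75% of all genes tested. Skap2, a myeloid adaptor of integrin activation, rose from 111 ± 24 to 318 ± 67 reads (SD, n = 3 each; log2 fold change 1.51; limma adjusted p = 0.00543), and its T-cell relative Skap1 fell from 6734 ± 337 to 5094 ± 384 (-0.40; limma adjusted p = 0.0203). The focal adhesion kinase gene Ptk2 rose from 37.0 ± 5.4 to 89.1 ± 25.5 reads, and the scarce adaptor genes Parvb and Dab2 rose by 1.18 and 1.70 on the log2 scale. Tln2 fell by 0.96 on that scale, while its abundant paralog Tln1, the talin of leukocytes, had 23819 to 30632 reads in wild type and 22133 to 23235 in knockout (-0.28; limma adjusted p = 0.110). The kindlin gene Fermt3 (-0.12), Rap1a (-0.06), Rap1b (0.05), Rassf5 (0.04) and Ptk2b (-0.10) were not called.

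Tetraspanin partners moved in both directions. Of 22 listed genes 21 were tested, 3 rose and 3 fell, and their median log2 fold change was 0.004. The share called was 28.6%, against 8.75% of all genes tested. Ptgfrn and Igsf8, the direct partners of Cd9 and Cd81, fell from 7221 ± 967 to 5130 ± 705 and from 1688 ± 137 to 1262 ± 144 reads (log2 fold changes -0.49 and -0.42; limma adjusted p = 0.0390 and 0.0467). Bsg, a chaperone of lactate transporters, fell by 0.34 on the log2 scale. The hyaluronan receptor gene Cd44 and the interferon-induced gene Ifitm3 rose by 1.51 and 2.07 on that scale. Of 53 tested adaptors and partners in both lists, 7 rose and 5 fell with all libraries, 0 rose and 0 fell without knockout library 3, 2 and 0 without knockout library 2, 3 and 0 without wild-type library 1, 3 and 0 without wild-type library 3 and 5 and 3 without knockout library 1. These counts moved with the whole table, in which 1.09%, 4.96%, 2.61%, 3.74% and 5.44% of all genes were called in the same 5 fits, in that order. Scaled by library totals, 8 of the partners rose and 1 fell, and over all genes 1217 rose and 300 fell, against 957 and 618 with the deposited scaling.

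Ligands of the integrins were measured in the same samples. Of 18 tested ligand genes 4 rose and 2 fell, and their median log2 fold change was 0.25. The share called was 33.3%, against 8.75% of all genes tested. Fn1, the fibronectin bound by alpha 5 and alpha 4 integrins, had 448, 1301 and 564 reads in wild type and 3192, 5111 and 5141 in knockout, the largest fold among the called ligands (log2 fold change 2.66; limma adjusted p = 0.0376), although edgeR did not call it (adjusted p = 0.0530). Cdh1, the E-cadherin bound by alpha E beta 7, rose from 67.1 ± 25.2 to 173 ± 17 reads, Spp1 (osteopontin) by 1.71 and the laminin chain gene Lamc1 by 1.17 on the log2 scale. Icam2, a ligand of LFA-1, fell from 1772 ± 185 to 1187 ± 163 reads (-0.58; limma adjusted p = 0.0225), and Col1a1 from 117 ± 11 to 51.1 ± 15.8. Icam1 and Vcam1 were not called, at 556 to 912 and 458 to 927 reads and at 45.2 to 232 and 141 to 190 reads.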

How the data were processed

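PolyA RNA of 6 samples was analysed, with groups and replicate numbers from the sample titles. The submitters' processing notes name STAR 2.6.0a, featureCounts, DESeq2 and bcl2fastq 1.8.4, and the build GRCm38. No source used here states the annotation, the strand setting or how multi-mapping reads were treated. The deposited signal per gene is a gene count divided by 1 size factor per library, read from the values: dividing by each library's smallest step gave whole reads for 100% of values within 0.01. Of 23314 rows, 8 without an identifier, at most 0.00106% of a library's reads, were left out.

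For the test, log2(value + 2) was fitted in limma 3.58.1 under R 4.3.3, with trend and robust empirical Bayes, for genes at 10 or more in at least 3 libraries, with group as the term and Benjamini-Hochberg adjustment over all genes at 0.05. On the recovered reads, edgeR 4.0.16 and DESeq2 1.42.0 were run as alternatives, beside other scalings, filters, pseudocounts, a replicate block and each library left out. The procedure was tested on simulated counts with the same dispersion for every gene and no outlying library, a simpler setting than these data. Levels per kb used the union of exons in GENCODE M21 (GRCm38). Members and lists were chosen with earlier results of these data known. Per-library values are given for called members and for the 4 alpha chains, 3 beta chains and 6 tetraspanins with the highest mean among the others, and Itga10 and Itgb7 were added after their values were seen; called partners are named, except those not reported here, and uncalled partners and ligands and the genes overlapping members were chosen after their values were seen. Protein motifs were not analysed here, and the values of some listed genes are not reported here. No 2 libraries of a group agreed within sampling noise (chi-square of 13.1 to 57.5 per degree of freedom).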

Additional observations from a re-analysis of the deposited data

How the results depend on the processing

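All 10 calls among the members held their direction in each of the 160 refits, and 145 of these kept adjusted p under 0.05; the other 15 were losses when 1 library was left out, 7 of them without knockout library 3. The scalings, pseudocounts, filters and edgeR gave 7 rises and 3 falls. Leaving out 1 library gave 2 to 9 rises and 1 to 4 falls among members and 0 to 9 rises and 0 to 6 falls among partner genes, in fits that called 1.09% (without knockout library 3) to 10.9% (without wild-type library 2) of all genes. At an adjusted p under 0.1, 8 members rose and 5 fell, and 10 partner genes rose and 9 fell. The share of all genes called at that threshold was not computed. With genes at 1 CPM in at least 3 libraries, 4 partner genes rose (fewer genes tested). Under library totals 1 partner gene fell and under upper-quartile scaling 2; the cause was not tested. Whether the replicate numbers pair the samples was not settled. Deviations of same-numbered libraries correlated at 0.01, 0.50 and 0.14, and those of differently numbered libraries at -0.48 to 0.38. The replicate block gave 8 rises and 7 falls among members, with Itga5, Cd9, Cd82, Tspan2 and Tspan13 added, and 9 rises and 6 falls among partner genes, while 14.3% of all genes were called, against 8.75% without the block. At the depth of these libraries, Itga11, Tspan1 and Tspan2os had too few reads to test.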
